A study of Mus musculus with 96 samples.

Results

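Microglia sorted from the hippocampus were compared with microglia sorted from the hemisphere of the same young control mice. The comparison holds 16 of the 96 libraries of the study. They are all libraries labelled young control at 6 h or 48 h, with 4 animals at each time and 1 library per region from each of the 8 animals. The mice were wild-type, 3 to 5 months old and not operated on; what the controls underwent is not stated. The hippocampus and hemisphere libraries of an animal carry the same sort number in their library names, which is the only source of the pairing. Each library was made from 1000 cells gated as CD11b+, Fcrls+ and Ly6C-, with Smart-seq2, which amplifies full-length cDNA from little RNA. A pair of further sets of animals were used to see where the young controls differed: 16 old controls (20 to 22 months) and 8 young animals after abdominal surgery, each with both regions.

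Microglia are the resident macrophages of the brain. They derive from the yolk sac and keep a homeostatic programme that depends on TGF-beta and on CSF1 receptor signalling. They survey neurons through purinergic and chemokine receptors such as P2RY12 and CX3CR1. Earlier work on adult mouse brain has described regional differences between microglia, among them differences in immune vigilance and energy metabolism.

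The deposited values were estimated counts per gene model. Totals ran from 1874168 to 3497144 per library, but 15 gene models, mostly repeat-like or ribosomal, held 55.3% to 79.9% of them. Outside these models a library held 465922 to 1500332 counts. Levels are given as CPM, counts per 1e6 of the TMM-adjusted library total, with the SD over 8 libraries. In 2 hippocampus libraries (6 h replicates 1 and 4) low counts were spaced in larger steps: a value of 1 accounted for 4.11% and 9.93% of the values from 1 to 3, against 53.8% to 64.4% in the other 14. These are called stepped libraries below, and values without their 2 animals are given beside the gene differences and programme list medians printed for the young controls that moved by over 1.5 times. The regions were deposited in separate tables, so region and table cannot be told apart.

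Microglial identity was checked first. The 10 microglia markers summed to 6300 to 9980 CPM in hemisphere and to 4500 to 11500 CPM in hippocampus, and none was at 0. The lowest of these sums was that of a stepped library, hippocampus 6 h replicate 1. Markers of all other cell types stood below, as described further on. Libraries of the hippocampus resembled each other less than those of the hemisphere: across tested genes, the median correlation between 2 libraries was 0.814 among hippocampus and 0.859 among hemisphere libraries. The median SD of log2 CPM over libraries was 0.554 in hippocampus and 0.427 in hemisphere. Without the stepped libraries the hippocampus SD was 0.497 and the correlation 0.82.

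No gene passed the test between microglia of the 2 regions. Lists of homeostatic, complement, lysosomal and oxidative phosphorylation genes had median differences between -0.25 and 0.15 (log2). The summed level of choroid plexus markers, led by Ttr and Enpp2, stood higher in the hippocampus library of 8 of 8 animals. Not every single marker did so. Genes of antigen presentation and of inflammatory signalling stood lower in hippocampus by values that did not pass the test.

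Of 10108 genes tested, edgeR's quasi-likelihood test with the animal as a block called 0 at a Benjamini-Hochberg (BH) adjusted p below 0.05 (0.0%). An unadjusted p below 0.05 was reached by 685 genes (6.78%), of which 307 (3.04%) were higher and 378 (3.74%) lower in hippocampus. DESeq2 called 11 genes, 5 higher and 6 lower (0.109%), and limma-voom called 0. The 95% intervals put these values in scale: for 7496 of the 10108 genes (74.16%), the interval of the difference lay within 2-fold in both directions, and the median interval reached 0.56 (log2) to either side of the fitted value. Among the 3517 genes with a mean log2 CPM of at least 4, 3130 (89%) had such an interval. The 5th and 95th percentiles of the fitted differences were -0.55 and 0.52, and 108 genes (1.07%) lay past 2-fold.

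**Figure D1:**
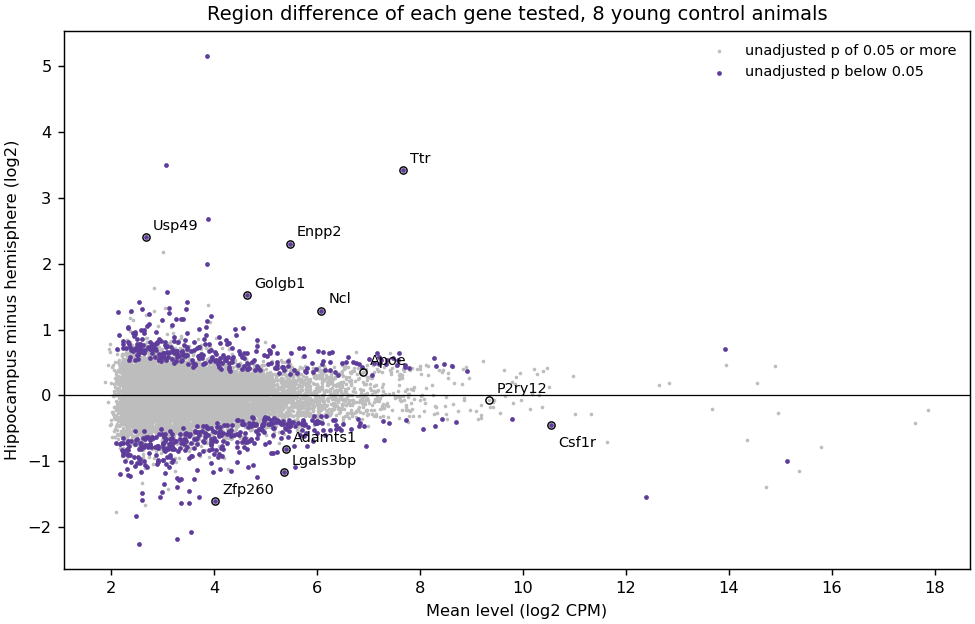
Difference between hippocampus and hemisphere (log2, vertical) against mean level (log2 CPM, horizontal) for the 10108 genes tested in 8 young control animals; purple points have an unadjusted p below 0.05 and none passed the adjusted threshold. Ttr, Enpp2, Usp49 and Golgb1 stand above the cloud, and the microglial genes P2ry12 and Csf1r lie at -0.07 and -0.45 at a high level.

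Among the homeostatic genes, P2ry12, the purinergic receptor that steers microglial processes, stood at 658 ± 56.4 CPM in hemisphere and at 640 ± 157 CPM in hippocampus. Its hemisphere values ran from 594 to 736 CPM (median 646) and its hippocampus values from 441 to 980 CPM (median 623), so the hippocampus values spanned the whole hemisphere range. The difference was -0.07 ± 0.14 (log2 ± SE), with a 95% interval from -0.37 to 0.24. Tmem119, a microglia-specific membrane protein, differed by -0.18 ± 0.15 (interval -0.50 to 0.14). Cx3cr1, the receptor for the neuronal chemokine fractalkine, differed by -0.17 ± 0.17. Sall1, the transcription factor that maintains microglial identity, stood at 110 ± 17.8 CPM in hemisphere and 117 ± 17.02 CPM in hippocampus (0.10 ± 0.14). Without the animals with stepped libraries the differences were 0.03 for P2ry12, -0.10 for Tmem119, -0.05 for Cx3cr1 and 0.17 for Sall1. Each of the intervals over all 8 animals excludes a 2-fold difference in either direction.

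All 26 genes of the homeostatic list were tested, 0 were called, and their median difference was -0.15, against 0.00 over all genes tested. Per animal, the list median was below 0 in 5 of 8. Differences were negative for 21 genes and positive for 5. Csf1r, the receptor for the growth factors on which microglia depend, was the only one with an unadjusted p below 0.05. It stood at 1960, 1660, 1190 and 1070 CPM in the hemisphere libraries of 6 h replicates 1 to 4, and at 650, 1690, 1170 and 996 CPM in their hippocampus libraries. At 48 h it stood at 1910, 2060, 2180 and 1600 CPM in hemisphere and 1210, 1090, 2490 and 1040 CPM in hippocampus. The groups overlapped, and hippocampus was lower in 6 of 8 animals (Csf1r difference -0.45 ± 0.20, edgeR BH 0.713). Without the 2 animals with stepped libraries the Csf1r difference was -0.34, and the median of the list was -0.05.

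Signalling through TGF-beta sustains this programme. Smad3, which carries the TGF-beta signal to the nucleus, was lower in the hippocampus library of 8 of 8 animals, a pattern that 59 genes (0.584%) showed. Smad3 values ran from 17.8 to 55.6 CPM in hemisphere (median 32.7) and from 15.1 to 25.6 CPM in hippocampus (median 23.1), so the groups overlapped. The Smad3 difference was -0.65 ± 0.16 (edgeR BH 0.571). Tgfbr2, the ligand-binding receptor, stood at 128 ± 28.3 CPM in hemisphere and 94.5 ± 29.4 CPM in hippocampus (-0.47 ± 0.21, edgeR BH 0.713), and at -0.21 without the animals with stepped libraries. Over the 15 tested genes of the TGF-beta list (of 21) the median was -0.11, with 11 below 0.

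**Figure D2:**
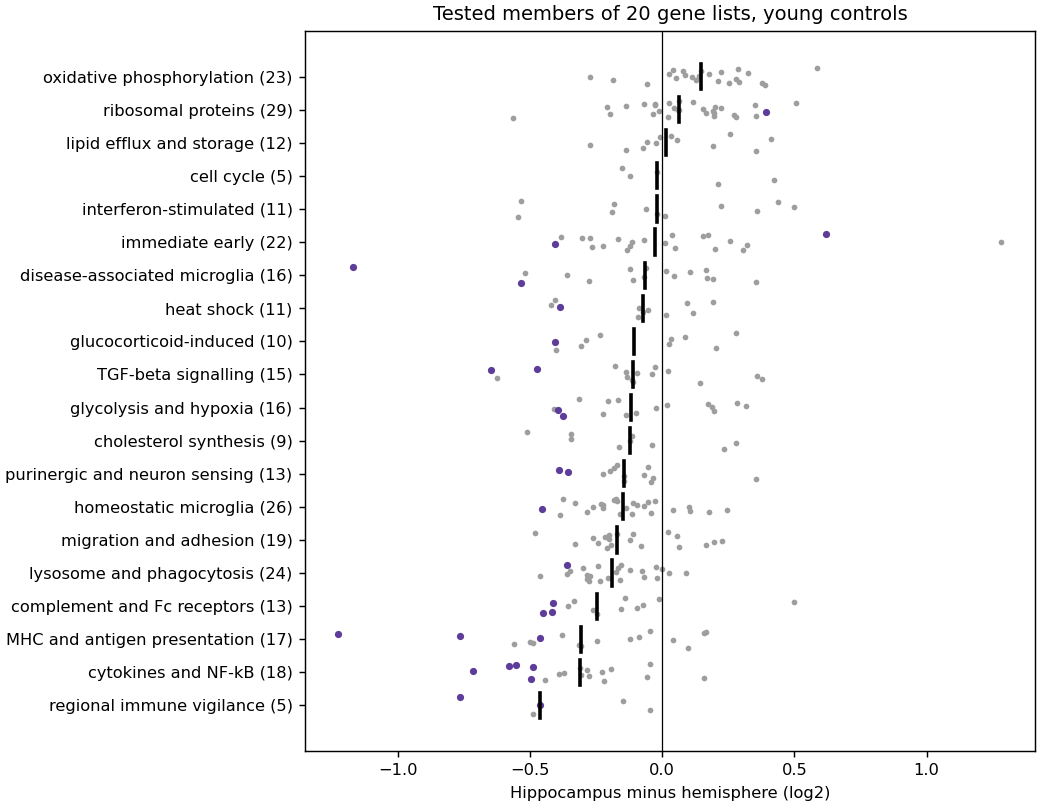
Difference between hippocampus and hemisphere (log2, horizontal) for each tested member of 20 gene lists (rows, with the number tested); purple points have an unadjusted p below 0.05, none was called, and black bars are list medians. Medians ran from -0.46 for regional immune vigilance, which shares tested genes with the antigen presentation and cytokine lists, to 0.15 for oxidative phosphorylation.

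Antigen presentation genes stood lower in hippocampus by value. Of the 20 listed genes 17 were tested, 0 were called, and the median was -0.31, with 13 below 0 and 4 above. Per animal, the median over these genes was below 0 in 7 of 8. Without the animals with stepped libraries the list median was -0.19. The classical class I heavy chain H2-K1 stood at 138 ± 51.98 CPM in hemisphere and 101 ± 40.2 CPM in hippocampus and was lower in 7 of 8 animals (-0.46 ± 0.18, edgeR BH 0.713). H2-D1, the other classical heavy chain, ran from 95.3 to 279 CPM in hemisphere and from 13.2 to 133 CPM in hippocampus (-0.77 ± 0.33). Its lowest value was that of the stepped library of 6 h replicate 1, and without the animals with stepped libraries the H2-D1 difference was -0.48. Nlrc5, the transcriptional activator of class I genes, differed by -1.22 ± 0.50 from a low level of 6.08 CPM in hemisphere. Class I genes are close relatives, and how their shared reads were counted is not stated. Cd74, the invariant chain of class II, differed by -0.49 ± 0.39, and H2-Aa did not pass the filter on low counts.

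Inflammatory signalling genes followed the same order of values. The list of cytokines and NF-kB had 18 of 27 members tested, 0 called, a median of -0.31 and 17 members below 0. Per animal, the list median was below 0 in 5 of 8. Tlr2, a receptor for bacterial lipoproteins, stood at 25.4 ± 5.59 CPM in hemisphere and 17.02 ± 9.45 CPM in hippocampus (-0.71 ± 0.25, edgeR BH 0.713). Ccl2, a chemokine that attracts monocytes, differed by -0.58 ± 0.22, Tlr4, the endotoxin receptor, by -0.55 ± 0.25, Cxcl16, a transmembrane chemokine, by -0.50 ± 0.20, and Nfkbiz, a nuclear IkB protein, by -0.49 ± 0.18. Each of these 5 genes had an unadjusted p below 0.05, and each was lower in 6 or 7 of 8 animals. Ccl2 stood at -0.36 and Tnf at -0.23 without the animals with stepped libraries. Tnf stood at 10.8 ± 4.12 CPM in hemisphere and 8.72 ± 4.23 CPM in hippocampus (-0.39 ± 0.31), and Il1b did not pass the filter.

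Phagocytic and complement genes lay slightly below 0. Lysosomal genes had 24 of 27 members tested, a median of -0.19 and 22 below 0; Ctss, a cathepsin that processes antigen, stood at 984 ± 193 CPM in hemisphere and 787 ± 237 CPM in hippocampus (-0.36 ± 0.16, edgeR BH 0.713). Complement and Fc receptor genes had 13 of 17 members tested and a median of -0.25. Among them Fcgr2b, the inhibitory Fc receptor, differed by -0.42 ± 0.18, and C3ar1, the receptor for the C3a fragment, by -0.41 ± 0.17. Without the animals with stepped libraries the 2 list medians were -0.08 and -0.09, and Ctss stood at -0.21.

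Disease-associated genes had no common direction. Of 26 listed genes 16 were tested, with a median of -0.06 (0.03 without the animals with stepped libraries), 9 below and 7 above 0. Apoe, the lipid carrier that microglia express in disease, stood at 111 ± 113 CPM in hemisphere and 125 ± 93.6 CPM in hippocampus (0.35 ± 0.23, and 0.57 without the animals with stepped libraries), with 1 hemisphere and 1 hippocampus library of the same animal near 378 and 347 CPM. Trem2, a lipid receptor, differed by 0.11 ± 0.13 (interval -0.17 to 0.39). Lgals3bp, a secreted galectin-binding glycoprotein, was the member with the largest difference. It ran from 22.6 to 82.7 CPM in hemisphere (median 53.9) and from 7.31 to 94.3 CPM in hippocampus (median 16.7), and it was lower in 7 of 8 animals. The Lgals3bp difference was -1.17 ± 0.28, with an edgeR BH of 0.571 and a DESeq2 BH of 0.02.

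The list of immune vigilance genes, named after the regional differences of earlier work, had only 5 of 20 members tested, with 5 below 0 and a median of -0.46. Camp and Ngp, antimicrobial proteins of neutrophil granules on that list, were at 0 in 14 and 10 of the 16 libraries and were not tested. Of the 5 tested members, Cd74, H2-K1 and H2-D1 are also on the antigen presentation list and Il18 is on the cytokine list. The remaining member, Lyz2, differed by -0.15 ± 0.16. Oxidative phosphorylation genes had 23 of 23 tested, a median of 0.15 (0.23 without the animals with stepped libraries) and 20 above 0, and no member had an unadjusted p below 0.05. Ribosomal protein genes had a median of 0.06, and Rps24 stood at 59.4 ± 9.03 CPM in hemisphere and 80.2 ± 24.6 CPM in hippocampus (0.39 ± 0.17, and 0.24 without the animals with stepped libraries). Glycolytic genes had a median of -0.12 (0.03 without those animals), with Hk2, a hexokinase, at -0.38 ± 0.15.

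Stress and activity programmes showed no common direction. Immediate early genes, which report recent stimulation, had 22 of 24 tested and a median of -0.03 (-0.07 without the animals with stepped libraries), with 11 on each side of 0. Fos stood at 540 ± 177 CPM in hemisphere and 463 ± 159 CPM in hippocampus (-0.22 ± 0.14). Dusp1, a phosphatase that ends MAP kinase signals, differed by -0.40 ± 0.16, and Jund by 0.62 ± 0.26 (0.38 without those animals). Glucocorticoid-induced genes had a median of -0.10, with Fkbp5 at -0.29 ± 0.26, and heat shock genes one of -0.07 (-0.04 without those animals). Interferon-stimulated genes had 11 of 25 tested and a median of -0.02 (0.04 without those animals). Over the 20 lists, 287 distinct genes were tested. An unadjusted p below 0.05 was reached by 23 of them in the lower direction (8.01%, against 3.74% of all genes) and by 2 in the higher direction (0.697%, against 3.04%).

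Ttr and Enpp2 were among the genes with the smallest p values. Both encode proteins secreted by the choroid plexus, the epithelium in the ventricles that makes cerebrospinal fluid. Ttr encodes transthyretin, a carrier of thyroxine and retinol. In hemisphere at 6 h it was listed at 0, 19.6, 0 and 0 CPM in replicates 1 to 4. In their hippocampus libraries it stood at 143, 132, 51.9 and 23.6 CPM. At 48 h Ttr stood at 144, 57.5, 21.4 and 288 CPM in hemisphere and at 268, 386, 406 and 1301 CPM in hippocampus. The groups overlapped across animals, but hippocampus was higher in 8 of 8 animals, which held for 62 genes (0.613%). The Ttr difference was 3.43 ± 0.69, with an edgeR BH of 0.571 and a DESeq2 BH of 0.0114.

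Enpp2 (chr15:54838901-54952892, mm10) encodes autotaxin, the secreted enzyme that makes lysophosphatidic acid. At 6 h it stood at 2.05, 3.51, 0.347 and 0 CPM in hemisphere and at 15.9, 26.3, 4.13 and 4.41 CPM in hippocampus. At 48 h it stood at 32, 21.1, 6.97 and 81.2 CPM in hemisphere and at 67.7, 50.6, 129 and 260 CPM in hippocampus. Every animal had the higher Enpp2 value in hippocampus, by 1.07 to 4.07 on the log2 scale. The fitted difference was 2.31 ± 0.37, with an edgeR BH of 0.124 and a DESeq2 BH of 1.37e-07. Hippocampus 48 h replicate 4 held the highest value of both Ttr and Enpp2.

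**Figure D3:**
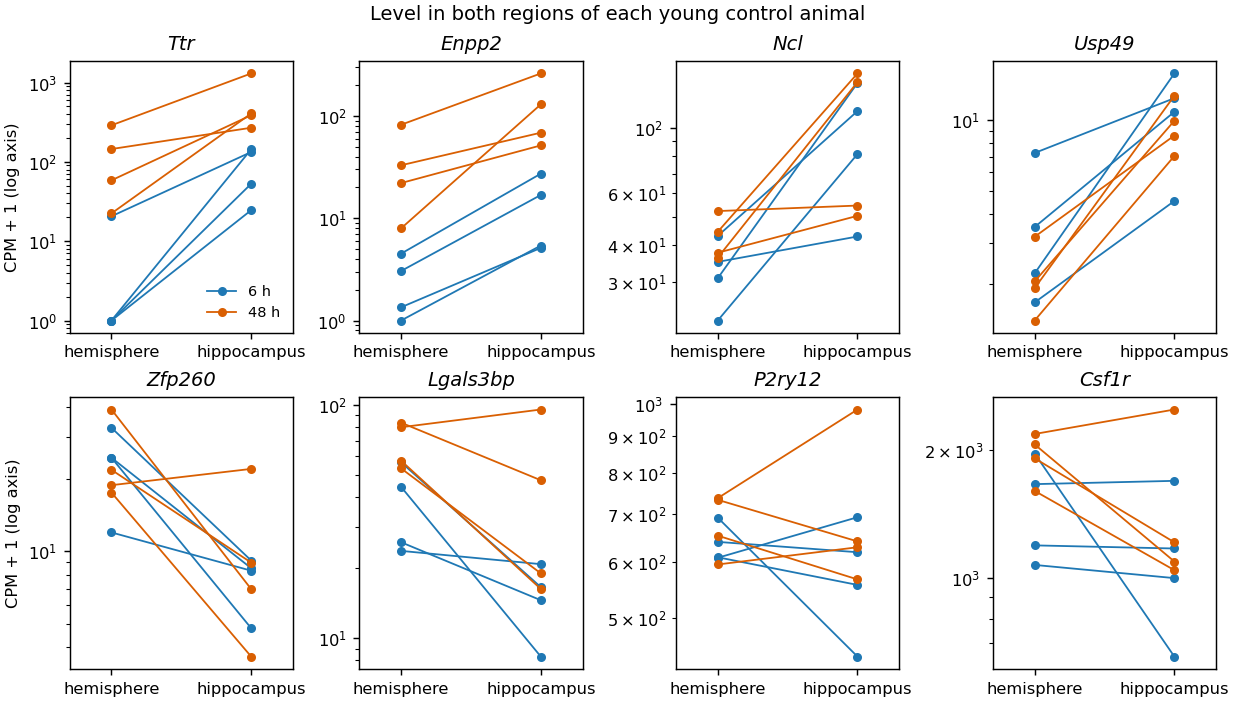
Level in hemisphere and hippocampus (CPM + 1, log axis) for 8 genes, with 1 line per young control animal, blue at 6 h and orange at 48 h. Ttr, Enpp2, Ncl and Usp49 were higher in hippocampus in 8 of 8 animals, whereas P2ry12 was lower in 5 and higher in 3.

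Of the 12 choroid plexus markers 4 passed the filter on low counts (Ttr, Enpp2, Kl and Prlr), and their median difference was 1.40. Kl, the klotho protein, differed by 0.50 and was higher in 6 of 8 animals, and Prlr, the prolactin receptor, by 0.26 and in 5 of 8. Markers below the filter included Kcnj13, a potassium channel, with 14 counts over the hemisphere libraries and 55 over the hippocampus libraries, and Sostdc1 with 3 and 15. Folr1, a folate receptor, had 11 and 10 counts. None of the 12 markers was at 0 in all libraries of a region. The sum of the 12 ran from 12.3 to 394 CPM in hemisphere (median 41.2) and from 45.7 to 1640 CPM in hippocampus (median 279), higher in 8 of 8 animals. Without Ttr the medians were 20.7 and 60.9 CPM. The part of choroid plexus RNA in other differences was not tested.

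By summed level, no other marker list had the same order in every animal. Hippocampal neuron markers summed to 20.5 to 64.7 CPM in hemisphere and 20.3 to 86.3 CPM in hippocampus, higher in 2 of 8 animals. General neuron markers had medians of 27.9 and 28.1 CPM. Oligodendrocyte markers ran from 237 to 425 CPM in hemisphere and from 182 to 379 CPM in hippocampus and were lower in 7 of 8 animals; the 4 tested had a median difference of -0.45, with the per-animal median below 0 in 8 of 8, and Mbp, a myelin protein, differed by -0.60 ± 0.35. Astrocyte markers had medians of 50.4 and 60.5 CPM. Border-associated macrophage markers had medians of 194 and 234 CPM, and monocyte markers 27.7 and 41 CPM, the latter higher in 7 of 8 animals. Single genes made up most of several sums. In hemisphere and hippocampus, Stab1 (border-associated macrophages) had means of 173.6 and 209.6 CPM, and Trf (oligodendrocytes) 274.5 and 225.3 CPM. Zbtb20 (hippocampal neurons) had 36.16 and 33.6 CPM, and Slc1a3 (astrocytes) 38.16 and 40.03 CPM. Which cells the RNA of these genes came from was not tested. Fewer cells of a type and less RNA per cell cannot be told apart in these pooled libraries.

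**Figure D4:**
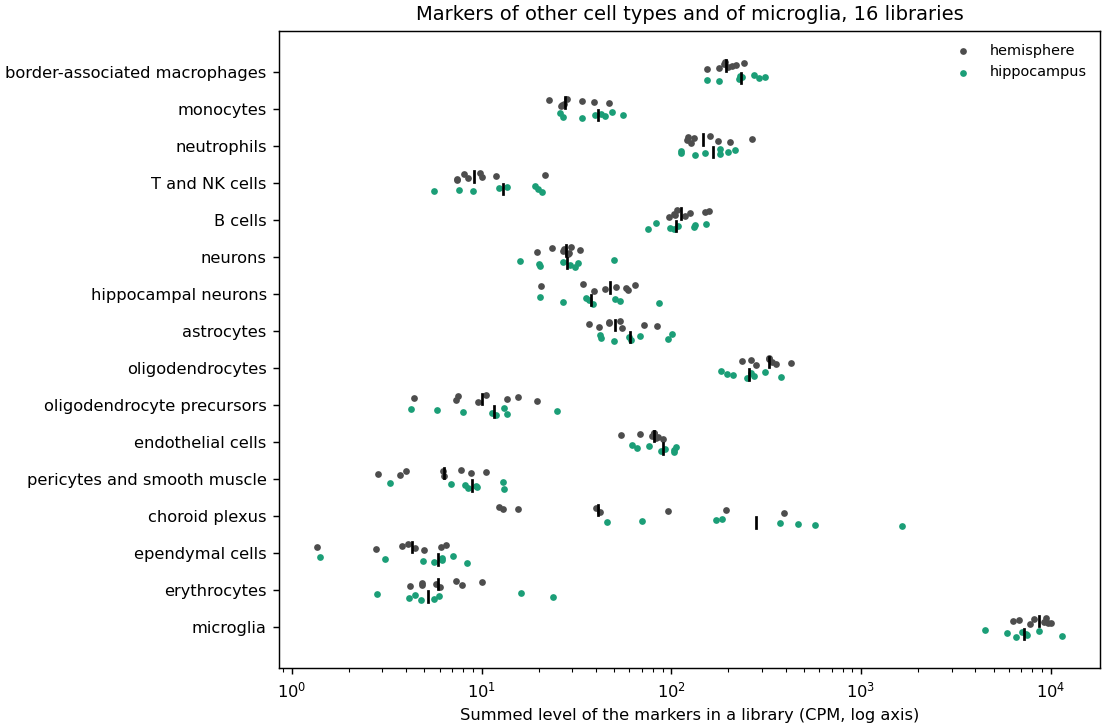
Summed level of each marker list (CPM, log axis, horizontal) in each of the 8 hemisphere (grey) and 8 hippocampus (green) libraries, with bars at the medians. Choroid plexus markers had medians of 41.2 and 279 CPM, and the microglia markers stood above all other lists at 4500 to 11500 CPM.

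Outside the choroid plexus list, and among genes with a mean log2 CPM of at least 4, the higher gene with the smallest p was Ncl (chr1:86344719-86359400), which encodes the nucleolar protein nucleolin. Ncl stood at 36.7 ± 9.11 CPM in hemisphere and 96.5 ± 45.8 CPM in hippocampus and was higher in 8 of 8 animals, by 0.06 to 2.21 on the log2 scale. Its difference was 1.29 ± 0.26 (edgeR BH 0.345, DESeq2 BH 0.00109). Golgb1, the Golgi tether giantin, differed by 1.52 ± 0.50 and was higher in 7 of 8 animals, with 48 h replicate 3 far on the other side at -3.02. Piezo1, a channel opened by mechanical force, differed by 1.02 ± 0.27, Mrpl19, a protein of the mitochondrial ribosome, by 0.92 ± 0.26, and Zyg11b, a substrate receptor of a ubiquitin ligase, by 0.78 ± 0.23. The RNA-binding proteins Ptbp3 (0.64) and Zcchc7 (0.59), the ubiquitin-like splicing factor Ubl5 (0.58), Grcc10 (0.53) and the vomeronasal receptor gene Vmn1r201 (0.49) complete the 12 higher genes of the naming rule. None of the 12 was called.

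Among the lower genes at that level, Zfp260 (chr7:30094777-30107622), a zinc finger protein, had the smallest p. It ran from 11.0 to 38.2 CPM in hemisphere (median 22.2) and from 2.64 to 21.1 CPM in hippocampus (median 7.41), and it was lower in 7 of 8 animals. The Zfp260 difference was -1.61 ± 0.32 (edgeR BH 0.345, DESeq2 BH 0.00134). Pdk1, a kinase that restrains pyruvate dehydrogenase, was lower in 8 of 8 animals (-0.72 ± 0.17), as were Map4, a microtubule-associated protein (-0.77 ± 0.18), Zfp592 (-1.08 ± 0.26) and Cysltr1, a receptor for cysteinyl leukotrienes (-0.89 ± 0.25). Ptdss1, which makes phosphatidylserine, differed by -1.12 ± 0.29, the kinase Stk25 by -0.93 ± 0.24 and Serinc1 by -0.63 ± 0.16. Adamts1, a secreted metalloprotease, stood at 51.3 ± 16.4 CPM in hemisphere and 31.0 ± 15.9 CPM in hippocampus (-0.81 ± 0.22), and Iqcn at 28.1 ± 9.09 and 18.4 ± 8.73 CPM (-0.67 ± 0.17). Lgals3bp and Smad3, given above, complete the 12, and none was called.

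Further genes were picked after their values were seen. Only 3 tested genes (0.0297%) had no overlap between the 8 hippocampus and the 8 hemisphere libraries, and all 3 were higher in hippocampus. Kpna1, an importin that carries proteins into the nucleus, ran from 5.25 to 11.6 CPM in hemisphere and from 13.1 to 45.1 CPM in hippocampus (1.21 ± 0.28, edgeR BH 0.571). Eif3g, a subunit of a translation initiation factor, ran from 8.13 to 13.9 and from 15.01 to 20.4 CPM (0.69), and Fignl1, an ATPase of DNA repair, from 1.39 to 3.51 and from 3.75 to 8.94 CPM (1.04). Usp49, a deubiquitinase, had the smallest p of all genes, at a low level of 1.91 ± 1.898 CPM in hemisphere and 9.23 ± 3.54 CPM in hippocampus (2.40 ± 0.36, edgeR BH 0.0992, DESeq2 BH 0.000147). The filter on low counts admits a gene on its level in the libraries of 1 region. Usp49, and by its level probably Fignl1, entered through hippocampus, where they were high. Their separation between regions is thus not independent of the filter.

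The 11 genes that DESeq2 called include Usp49 and 5 named above (Enpp2, Ttr, Ncl, Zfp260 and Lgals3bp). St3gal4, a sialyltransferase, stood at 8.09 ± 3.96 CPM in hemisphere and 2.76 ± 1.54 CPM in hippocampus. The non-coding D330041H03Rik and Bach2os differed by -1.45 and -2.26. The last 2 are gene models with the symbol Zc3h11a that overlap almost entirely on chromosome 1. One differed by -1.64 and the other by 5.16, so reads may have been split between them and both values are uncertain.

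The region difference was then compared between the times. The 6 h and 48 h animals are separate mice. Of 12249 genes tested, 0 (0.0%) had a region difference at 48 h that was called different from that at 6 h, and 448 (3.66%) had an unadjusted p below 0.05. Ttr differed between regions by 5.56 at 6 h and by 2.44 at 48 h, and the test of the difference gave -2.81 with an unadjusted p of 0.0404. Its levels were higher at 48 h than at 6 h in both regions by value, as given above. For Enpp2 the 2 differences were 3.30 and 1.899 and for Ncl 1.51 and 1.08. Smad3 differed by -0.88 at 6 h and -0.39 at 48 h, and Adamts1 by -0.47 and -1.14. List medians at 6 h and 48 h were -0.15 and -0.12 for homeostatic genes, -0.19 and -0.25 for antigen presentation and -0.21 and -0.42 for cytokines. Oxidative phosphorylation had 0.08 at 6 h and 0.28 at 48 h.

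In the old controls' own fit 11 of 9813 genes (0.112%) were called, and 1024 (10.4%) had an unadjusted p below 0.05. One of their hemisphere libraries (6 h replicate 7) is stepped too. Of the called genes, 9 were tested in the young controls, 5 with the same sign, and none had an unadjusted p below 0.05 there. Fcrls, an Fc receptor-like marker of microglia, rose by 0.50 ± 0.09 in old hippocampus (edgeR BH 0.0153) and stood at -0.04 ± 0.15 in young controls (0.01 without the animals with stepped libraries). Upk1b, a tetraspanin, rose by 0.79 ± 0.12 in the old and stood at -0.30 ± 0.23 in the young. Sp100, a nuclear body protein induced by interferon, fell by 1.07 in the old and stood at 0.06 ± 0.24 in the young. The class I-like gene H2-Q7 fell by 0.88 and stood at 0.04 ± 0.22 in the young (-0.17 without those animals). The test of the difference between the ages called 0 of 12791 genes (0.0%), with 1370 (10.7%) at an unadjusted p below 0.05. Upk1b had the value 1.10 (edgeR BH 0.271) and Fcrls 0.55 (edgeR BH 0.29) in that test. Without the young animals with stepped libraries, the number of genes at an unadjusted p below 0.05 fell to 740, of 13001 then tested.

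Some list medians differed in sign between the ages. Homeostatic genes had a median of 0.24 in old and -0.15 in young controls; P2ry12 stood at 0.34 ± 0.10 in the old (edgeR BH 0.268) against -0.07 ± 0.14, and the test of the difference gave 0.42 (edgeR BH 0.404). Lysosomal genes had medians of 0.07 and -0.19, and TGF-beta genes 0.15 and -0.11. Antigen presentation had -0.25 in old and -0.31 in young controls, and cytokines -0.18 and -0.31. Interferon-stimulated genes had -0.56 in old and -0.02 in young controls. These medians rest on 17 genes tested in old and 11 in young controls, so they do not compare the same genes. The young median kept its sign in only 9 of 17 refits. Apoe stood at -0.54 ± 0.15 in old against 0.35 ± 0.23 in young controls.

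Among the 12 higher named genes 10 had the same sign in old controls, but their median was 0.11 there against 0.85 in young controls. Among the 12 lower ones 5 had the same sign. Over all 277 genes higher at an unadjusted p below 0.05 and tested in both ages, 34.3% were positive in old controls, against 49.7% of all genes tested in both. Of the 362 lower ones 36.5% were negative, against 50.3% of all genes.

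The own fit of the young animals after surgery called 0 of 9931 genes (0.0%), with 354 (3.56%) at an unadjusted p below 0.05. Of the genes higher in young controls at an unadjusted p below 0.05, 67.9% were positive after surgery, against 52% of all genes, and of the lower ones 65.3% were negative, against 48%. Ttr differed by 5.54 ± 0.81 (edgeR BH 0.1) and Enpp2 by 4.56 ± 0.96 after surgery, and by 0.27 ± 0.62 and 0.59 ± 0.54 in old controls. Adamts1 stood at -0.77 ± 0.23 after surgery and -0.70 ± 0.16 in old controls, close to -0.81 ± 0.22 in young controls. Iqcn stood at -0.86 ± 0.30 and -0.61 ± 0.14, against -0.67 ± 0.17. Of the 24 named genes, Adamts1 and Iqcn were the only ones with an unadjusted p below 0.05 in both other sets.

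Some of the immune genes below 0 in young controls had similar values in both other sets, and others did not. Cxcl16 stood at -0.50 in young controls, -0.52 in old controls and -0.51 after surgery, and the old controls had an edgeR BH of 0.0665. Nfkbiz stood at -0.49, -0.63 and -0.61, and H2-K1 at -0.46, -0.41 and -0.41. These 3 had an unadjusted p below 0.05 in each set and were called in none. They belong to the 23 list genes lower in young controls at an unadjusted p below 0.05. Others of the 23 lay near or above 0 elsewhere. In old controls and after surgery Ctss stood at 0.08 and -0.08, Csf1r at 0.29 and -0.10, and Fcgr2b at 0.04 and 0.02. The 3 sets share no animals, and list members were selected here for their p in young controls.

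**Figure D5:**
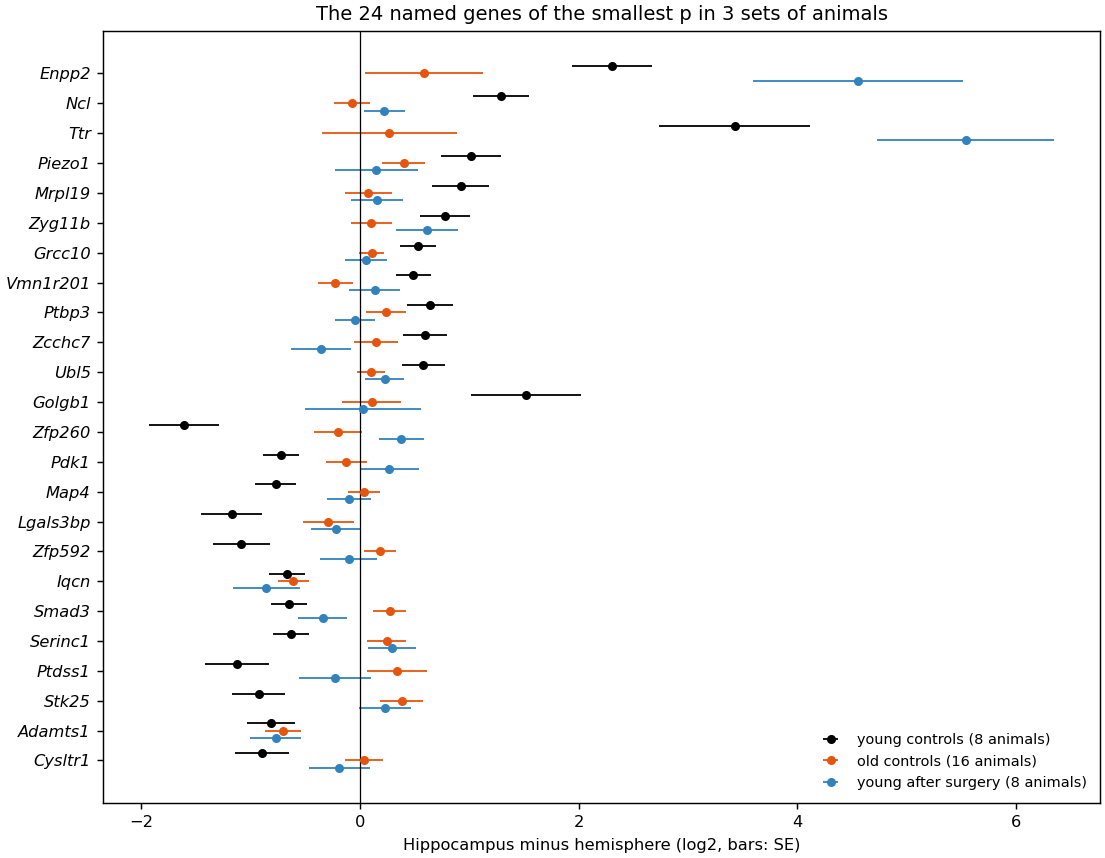
Difference between hippocampus and hemisphere (log2 ± SE, horizontal) of the 24 named genes in young controls (black, 8 animals), old controls (orange, 16 animals) and young animals after surgery (blue, 8 animals). Iqcn and Adamts1 lie near the same value in all 3 sets, Ttr and Enpp2 are high in both young sets, and Ncl is near 0 outside the young controls.

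The test of the region difference between surgery and control in young animals called 1 of 11831 genes (0.00845%), Usp49, and 441 (3.73%) had an unadjusted p below 0.05. In counts per 1e6 of the library total without TMM, Usp49 ran from 5.58 to 20.3 in the 8 control hippocampus libraries (median 8.21) and from 0.287 to 7.08 in the 8 hippocampus libraries after surgery (median 0.944). Hemisphere medians were 1.02 in controls and 1.62 after surgery, with 1 hemisphere library after surgery at 28.4. The control hippocampus thus stood apart from the other 3 groups, except for single libraries. Usp49 passed the filter on low counts through these control hippocampus libraries, where it was high, so this separation is not independent of the filter. The change in the region difference was -3.62 ± 0.57 (edgeR BH 0.0285). It was not called without the animals with stepped libraries (edgeR BH 0.181), with no animal block (edgeR BH 0.597), or without any single one of 6 of the 8 control animals.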

How the data were processed

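RNA from sorted microglia of 16 young control libraries was analysed, with 32 old control and 16 young surgery libraries for comparison. The authors deposited estimated counts for Ensembl gene models, as whole numbers in separate columns for each library, per the file headers. Submitters' processing notes name mm10, R 4.2.1 and DESeq2 1.36.0. Aligner, counter, annotation and strand setting were not given in the sources used here. Symbols came from an annotation of the same build (54495 of 54532 identifiers matched), where coordinates are 1-based.

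The main test was edgeR 4.0.16 (R 4.3.3; quasi-likelihood, TMM, robust, filterByExpr at a minimum count of 10) with region and the animal as terms, and BH below 0.05 over all genes tested; DESeq2 1.42.0 and limma 3.58.1 (voom) were alternatives, and the scripts were tested on simulated data. The design was written for counts and kept for the estimated counts, which were already whole. CPM and SD use TMM; log2 differences within an animal use a prior count of 2. The sort number was taken as the animal: deviations of same-numbered libraries from their group means correlated at -0.16 to 0.184, and 4 of 8 animals correlated best with their own number. With the animal as a term, p-values rest on how the difference between regions varied among these animals.

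Named genes were the 12 of largest change per direction among called genes with a mean log2 CPM of 4 or more, filled up with the smallest p where fewer were called, without predicted, Rik and mitochondrial symbols, together with called list members and 20 fixed genes, of which Clec7a, Mrc1, Snap25 and those so described in the results were under the filter. A pair of genes of these lists is not reported here. List members at an unadjusted p below 0.05 were added after their values were seen. The 20 programme and 15 marker lists, and the comparison itself, were chosen with earlier results of these data known.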

Additional observations from a re-analysis of the deposited data

Results flagged for a closer look

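Groups of 4 libraries and sets of 8 within-animal differences were checked for single values far from the rest, by the gap to the nearest other value as a share of the whole range. Of 99 such groups 7 stood out, where chance gives about 1 in 20.

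In 2 of the genes checked the difference between hippocampus and hemisphere of 6 h replicate 1, whose hippocampus library is stepped, lay far below that of the other 7 animals. Cx3cr1 was at -1.16 against -0.28 to 0.16 in the others (share 0.668) and Apoe at -1.45 against -0.12 to 0.91 (share 0.564). The check did not cover every gene given above. H2-D1, which it left out, was at -3.62 in 6 h replicate 1 against -1.06 to 0.21 in the others. Golgb1 was at -3.02 in 48 h replicate 3 against 1.07 to 2.99 in the others (share 0.681).

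Among marker sums, monocyte markers in hemisphere at 48 h were at 46.8 CPM in replicate 1 against 26.1 to 27.1 CPM in the other 3 (share 0.951). Choroid plexus markers were at 40.1 CPM in hemisphere 6 h replicate 2 against 12.3 to 15.6 CPM (share 0.88), and at 1640 CPM in hippocampus 48 h replicate 4 against 374 to 570 CPM (share 0.845). Erythrocyte markers were at 23.8 CPM in hippocampus 48 h replicate 1 against 4.15 to 5.63 CPM (share 0.925).

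The region difference of Usp49 differed between surgery and control in young animals by -3.62 (edgeR BH 0.0285), as described in the results.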

How the results depend on the processing

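The count of 0 called genes stayed 0 with limma-voom, with no replicate block, among the 6 h animals, without the 15 largest gene models and without the 2 animals with stepped libraries. It was 11 with DESeq2, 62 with no filter on low counts (24 of these at 0 in at least 1 library), 1 among the 48 h animals (a Zc3h11a model), 1 with all 96 libraries in the fit (Kpna1), and 0 to 2 without single animals: Col6a3 without 48 h replicate 2, Golgb1 without 48 h replicate 3, Usp49 and Zc3h11a without 6 h replicate 3. For the difference between times (0 called) the count was 1 with DESeq2, 36 with no filter and 0 to 1 without single animals. For that between ages (0 called) it was 16 with DESeq2, 130 with no filter, and 1 (Lepr) with limma-voom and with no replicate block. For that between surgery and control (1 called) it was 7 with DESeq2, 57 with no filter, 0 with no replicate block, 0 without the animals with stepped libraries and 0 to 2 without single animals. Apart from that last count and the age count, the paired block changed no call.

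The 24 named genes kept their sign in all 408 refits, and 12 of them were called in at least 1. These genes were picked for a small p in the libraries that the refits use again, which by itself favours a stable sign. Of the 12, Piezo1, Map4, Zfp592, Ptdss1, Stk25 and Adamts1 were called only with no filter on low counts. Over 17 refits, list medians kept their sign for homeostatic, antigen presentation, cytokine, complement, lysosomal, TGF-beta, oxidative phosphorylation, ribosomal and choroid plexus genes. They changed sign in at least 1 refit for disease-associated (2 of 17), interferon-stimulated (8 of 17), immediate early, heat shock, glucocorticoid-induced, purinergic, cholesterol, lipid, cell cycle and glycolytic genes. The causes were not tested. Depth limits genes of low level: at about 20 CPM a gene rested on 50.1 counts per library (Vmn1r201, hemisphere).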
